A study of Mus musculus with 6 samples.

Results

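The interleukin-1 receptor family was examined in regulatory T (Treg) cells of mice labelled wild type or as a knockout of transketolase, the enzyme of the non-oxidative pentose phosphate pathway that is encoded by Tkt. The genes were chosen by symbol: Il1rl1, Il18r1, Il18rap, Il1r1, Il1r2, Il1rap, Sigirr and Myd88, which are the receptor chains for interleukin-1 (IL-1), IL-18 and IL-33, their shared, decoy and inhibitory relatives, and the adaptor. All 8 had a row among the 18493 genes of the table, and all 8 passed the filter on low counts. RNA came from CD4+CD25+YFP+ cells sorted from spleen and lymph node of C57BL/6 female mice, 7 weeks old and untreated, with 3 libraries from mice labelled wild type (WT; Foxp3cre/+) and 3 from mice labelled as a Treg-specific knockout (cKO; Foxp3cre/+ TKTfl/fl). Both groups carry the Cre allele, on 1 of the X chromosomes of a female, so the sorted YFP+ cells come from mosaic animals (the design text calls them chimeric) that keep Treg cells without active Cre. The labels do not say whether a library pools mice, and the p-values then measure the spread between these 6 libraries.

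IL-1 family receptors pair a ligand-binding chain with an accessory chain, and the joined intracellular TIR domains recruit the adaptor MyD88, IRAK kinases and TRAF6, which lead to NF-kB and MAP kinases. IL1R1 and ST2 (encoded by Il1rl1) share the accessory chain IL-1RAcP (Il1rap), whereas the IL-18 receptor uses its own pair, Il18r1 and Il18rap. IL1R2 binds IL-1 without a signalling domain and acts as a decoy, and SIGIRR dampens signalling by the family. In Treg cells ST2 is known from tissue-resident and effector cells that respond to the alarmin IL-33, and IL1R2 from activated Treg cells.

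The libraries held 17180577 to 18215168 estimated reads. Tkt stood at 97.1 to 126 CPM (counts scaled to library size) in the WT libraries and 31.9 to 52.5 CPM in the cKO libraries, with no overlap. The log2 fold change was -1.41 ± 0.19 SE (adjusted p = 0.0516 in edgeR's quasi-likelihood test and 2.1e-10 with DESeq2). Tkt reads thus were lower but remained in every cKO library. The 8 Treg-defining genes were present in all libraries, with Foxp3 at 598 ± 122.7 (WT) and 620.4 ± 58.9 (cKO) CPM (SD, n = 3), and none was called. The lowest p among them belonged to Ikzf2 (Helios; log2 fold change -0.21 ± 0.09 SE) and Ctla4, an inhibitory receptor (-0.57 ± 0.37 SE). On the first principal component of the 1000 most variable genes (34.5% of their variance), WT2 (20.1) and cKO1 (31.7) lay highest and WT1 (-26.7) lowest, so this axis did not follow genotype.

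The 5 members encoded in a cluster on chromosome 1 were separated by genotype in these libraries, and the 3 encoded elsewhere were not. In Il1r2, Il1r1, Il1rl1, Il18r1 and Il18rap all cKO libraries lay below all WT libraries, with log2 fold changes from -1.05 to -0.54. In the other 3 (Il1rap, Sigirr and Myd88) the groups overlapped, with log2 fold changes from -0.10 to 0.12. None of the 8 passed an adjusted p of 0.05 in edgeR's test, which 0.21% of the 12887 genes tested did. At an unadjusted p under 0.05 there were 5 of the 8, all lower, against 5.01% of all genes tested (7.69% in either direction). Groups without overlap and lower in cKO were found in 8.12% of all genes. DESeq2 called 4 of the 8, namely Il1rl1, Il18r1, Il18rap and Il1r2, all lower, against 1.22% of all genes called lower by it. The median log2 fold change was -0.73 over the 8, beside 0.0042 over all genes tested. The members were chosen with earlier results of these data known, so these comparisons with all genes are no independent evidence. In bulk RNA, fewer cells of a type that expresses a gene and less RNA of it per cell cannot be told apart.

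The 5 genes lie on the plus strand of a 467016-base stretch (chr1:40084692-40551707 in GRCm38, the build also called mm10) in the order Il1r2, Il1r1, Il1rl2, Il1rl1, Il18r1, Il18rap. The sequences before 5 start sites of Il1r1, Il1rl1 and Il18rap are shown because these genes were lower together and because these windows hold at most 2 bases of annotated exon. Each is the 250 bases before a RefSeq start site (GRCm38.p6), 5′ to 3′ on the plus strand. Capitals mark, on either strand, the letters GATAA (known for GATA factors), the letters TGTGGT (RUNX factors) and the letters GGGANTT (NF-kB). Distal and proximal give only the order of the windows shown for a gene. The annotated gene starts of Il1r1 (40222480) and Il1rl1 (40404864) lie further upstream.
Il1r1, distal start (chr1:40224830-40225079): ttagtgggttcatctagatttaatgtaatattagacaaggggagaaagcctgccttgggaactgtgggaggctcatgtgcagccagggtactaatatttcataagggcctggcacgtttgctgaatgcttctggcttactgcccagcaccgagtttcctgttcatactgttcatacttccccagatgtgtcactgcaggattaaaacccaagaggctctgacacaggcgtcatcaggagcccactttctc
Il1r1, proximal start (chr1:40266336-40266585): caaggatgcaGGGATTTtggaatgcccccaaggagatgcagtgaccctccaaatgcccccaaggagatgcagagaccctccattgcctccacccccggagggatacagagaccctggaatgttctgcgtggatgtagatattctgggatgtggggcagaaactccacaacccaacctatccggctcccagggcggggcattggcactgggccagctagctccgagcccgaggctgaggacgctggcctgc
Il1rl1, distal start (chr1:40429320-40429569): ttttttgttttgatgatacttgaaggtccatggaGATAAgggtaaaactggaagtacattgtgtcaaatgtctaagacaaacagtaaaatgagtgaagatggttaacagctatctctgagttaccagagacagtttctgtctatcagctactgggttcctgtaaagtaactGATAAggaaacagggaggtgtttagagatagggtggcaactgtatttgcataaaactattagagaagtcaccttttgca
Il1rl1, proximal start (chr1:40439379-40439628): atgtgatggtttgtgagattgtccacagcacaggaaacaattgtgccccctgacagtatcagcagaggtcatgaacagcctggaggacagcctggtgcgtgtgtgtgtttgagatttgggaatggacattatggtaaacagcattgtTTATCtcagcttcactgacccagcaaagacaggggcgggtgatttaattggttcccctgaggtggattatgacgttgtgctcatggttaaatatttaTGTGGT
Il18rap (chr1:40515112-40515361): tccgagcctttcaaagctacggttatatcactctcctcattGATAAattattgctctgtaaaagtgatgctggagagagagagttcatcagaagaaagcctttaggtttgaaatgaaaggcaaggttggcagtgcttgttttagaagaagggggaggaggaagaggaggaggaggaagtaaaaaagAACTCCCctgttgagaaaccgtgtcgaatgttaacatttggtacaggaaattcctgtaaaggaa

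The distal Il1rl1 window held GATAA 2 times, the proximal window held it 1 time together with TGTGGT, and the Il18rap window held GATAA and GGGANTT 1 time each. The proximal Il1r1 window held GGGANTT 1 time, and the distal one held none of these. Of all 32851 promoter windows of this length, 22.6% held GATAA, 14.0% TGTGGT and 14.4% GGGANTT, so all are common letters. TGANTCA, the AP-1 motif (6.75% of all windows), was searched on both strands as well and was in none of the windows of the 7 members that were matched. The Il1r2 window held GATAA 1 time, and the windows of Il18r1, Il1rap and Myd88 held none of the 4 motifs. A match describes the letters and is not a measured binding site.

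Il1rl1 encodes ST2, the receptor of IL-33. It stood at 16.8, 15.5 and 18.6 CPM in WT1 to WT3 and at 10.5, 7.03 and 9.25 CPM in cKO1 to cKO3. The lowest WT library thus lay well above the highest cKO library, and means were 17.0 ± 1.56 and 8.92 ± 1.74 CPM (SD, n = 3). The level was 1.91-fold lower in cKO (log2 fold change -0.93 ± 0.16 SE, 95% interval -1.32 to -0.55; adjusted p = 0.1003 with edgeR, 6.9e-04 with DESeq2). It ranked 83 by p among the 12887 genes tested. The counts cover the whole gene, so membrane-bound ST2 and the soluble form made from the same gene are summed.

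Il1r1 encodes the signalling IL-1 receptor and had the lowest level of the 8 members per length (FPKM). It stood at 8.54, 5.32 and 7.55 CPM in WT and at 3.20, 4.36 and 3.73 CPM in cKO. WT2 came close to cKO2, and the gap between the groups was the narrowest of the 5 on this scale. The log2 fold change was -0.92 ± 0.23 (SE; 95% interval -1.46 to -0.38; adjusted p = 0.277 with edgeR and 0.0781 with DESeq2), so neither tool called it.

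Il18r1, the ligand-binding chain of the IL-18 receptor, was the most abundant of the 5 per length (FPKM). It stood at 70.4, 85.6 and 81.2 CPM in WT and at 52.4, 53.9 and 57.0 CPM in cKO, with the cKO libraries close together. Its fold change was the smallest of the 5 and had the smallest error, at 1.45-fold lower (log2 fold change -0.54 ± 0.09 SE, 95% interval -0.75 to -0.32; adjusted p = 0.0975 with edgeR, 5.2e-04 with DESeq2). Its annotated start lies 133 bases after the end of Il1rl1 on the same strand. Both genes have estimated reads that are not whole in all 6 libraries, and the step that made these fractions is not stated.

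Il18rap, the accessory chain needed for IL-18 signalling, showed the largest fold difference of the members. It stood at 10.2, 12.2 and 8.17 CPM in WT and at 4.07, 5.18 and 5.51 CPM in cKO, a 2.07-fold lower level (log2 fold change -1.05 ± 0.20 SE, 95% interval -1.52 to -0.58; adjusted p = 0.127 with edgeR, 0.0034 with DESeq2). Both chains of the IL-18 receptor were therefore lower in every cKO library.

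Il1r2, the decoy receptor, stood at 16.6, 18.2 and 16.8 CPM in WT and at 5.58, 11.2 and 9.52 CPM in cKO. The WT libraries lay close together, and cKO1 lay well below the other cKO libraries. The level was 1.96-fold lower (log2 fold change -0.97 ± 0.23 SE, 95% interval -1.52 to -0.42; adjusted p = 0.2503 with edgeR, 0.0146 with DESeq2). Without cKO1 the log2 fold change was -0.73 ± 0.12 (SE; edgeR adjusted p = 0.207).

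Il1rap, the accessory chain shared by the IL-1 and IL-33 receptors, stood at 22.8, 28.5 and 23.2 CPM in WT and at 23.1, 23.2 and 23.0 CPM in cKO. Only WT2 stood away from the rest, and the log2 fold change was -0.10 ± 0.11 (SE; 95% interval -0.35 to 0.14; adjusted p = 0.923 with edgeR). Sigirr, the inhibitory receptor, stood at 101, 81.2 and 96.3 CPM in WT and at 85.8, 97.4 and 98.97 CPM in cKO, lowest in WT2 and cKO1, the libraries that lie highest on the first principal component. Its 95% interval ran from -0.23 to 0.26 around a log2 difference of 0.02 ± 0.10 (SE; adjusted p = 0.993 with edgeR). Myd88, the adaptor, stood at 51.4, 55.7 and 53.2 CPM in WT and at 63.0, 54.8 and 56.0 CPM in cKO. Its log2 fold change was 0.12 ± 0.08 (SE; 95% interval -0.08 to 0.31; adjusted p = 0.849 with edgeR). The groups overlap in all 3, and their intervals leave out a change of the size fitted for the 5 chromosome 1 genes.

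**Figure D1:**
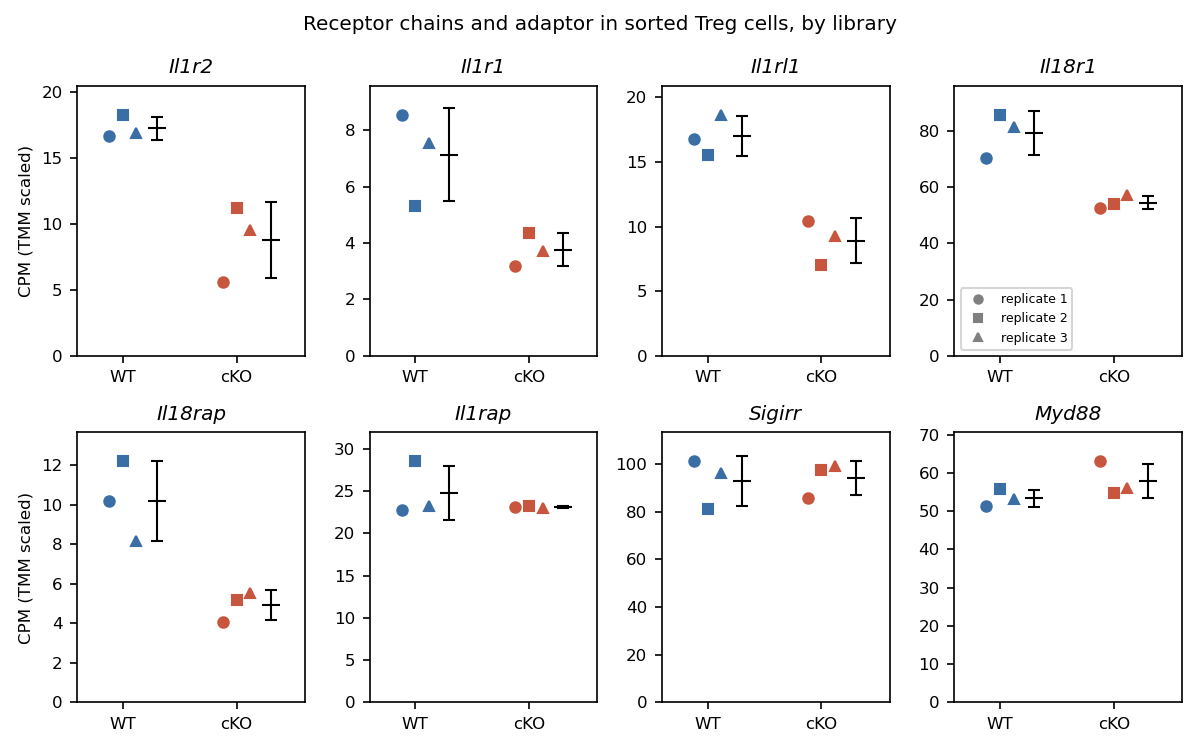
CPM of each member in the 3 WT (blue) and 3 cKO (red) libraries; symbols mark replicate numbers, and bars beside them give the mean and SD (n = 3). In the first 5 panels all cKO points lie below all WT points, and in Il1rap, Sigirr and Myd88 they overlap.

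Per length, the inhibitory and adaptor genes stood highest and the signalling IL-1 receptor lowest. On the deposited FPKM scale (reads scaled to gene length and to library size), WT means were 50.7 ± 6.92 for Sigirr, 28.1 ± 0.541 for Myd88, 21.0 ± 1.65 for Il18r1, 11.98 ± 0.692 for Il1r2, 5.47 ± 0.513 for Il1rap, 3.47 ± 0.414 for Il1rl1, 2.74 ± 0.764 for Il18rap and 1.52 ± 0.366 for Il1r1 (SD, n = 3). Neighbours in this order did not overlap between WT libraries except Il1rl1 and Il18rap. The order of the means was the same in cKO cells, but there Il1r2 (5.82 ± 2.02 FPKM) overlapped with Il1rap (5.14 ± 0.225 FPKM), as did Il1rl1 (1.79 ± 0.305 FPKM) with Il18rap (1.39 ± 0.311 FPKM). Decoy Il1r2 thus stood above signalling Il1r1 in every library, at 3.69 to 12.7 against 0.67 to 1.82 FPKM.

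**Figure D2:**
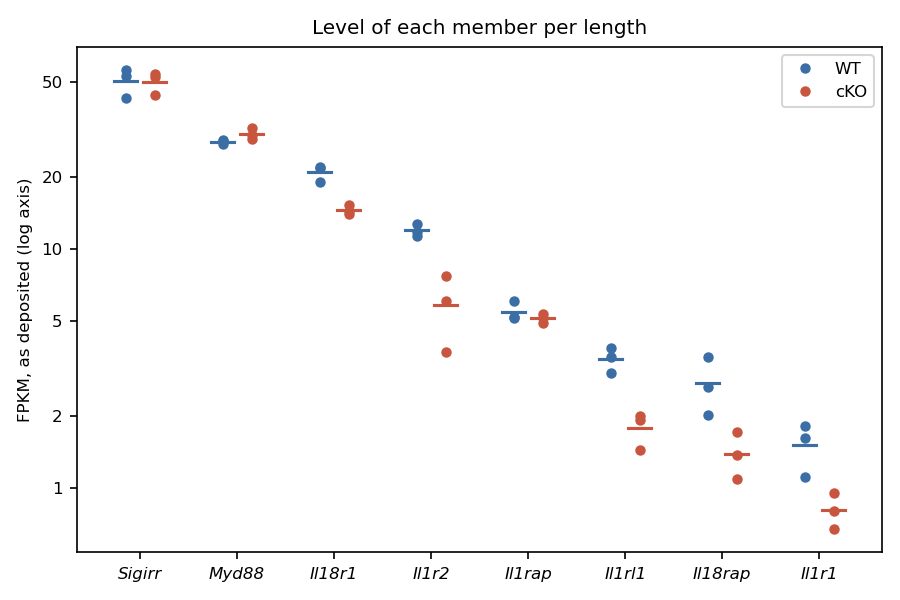
Deposited FPKM of each member on a log axis, ordered by the WT mean; points are libraries (WT blue, cKO red) and short lines the group means. Il18r1 is the highest of the ligand-binding chains, at 21.0 FPKM in WT and 14.6 FPKM in cKO, and Il1r1 is the lowest member in both groups.

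Ratios between partner chains, and between decoy Il1r2 and signalling Il1r1, were compared per library as differences of log2 CPM. The Il1rl1 to Il1rap ratio was -0.44, -0.87 and -0.32 in WT and -1.14, -1.72 and -1.31 in cKO, a difference of -0.85, with no overlap. The Il18r1 to Il18rap ratio moved the other way, from 2.97 ± 0.30 to 3.47 ± 0.18 (SD, n = 3), also with no overlap, the accessory chain being lower by the larger factor. Each had p = 0.1 in a two-sided exact permutation test, the smallest that 3 libraries against 3 can give, and 0.2 after Benjamini-Hochberg adjustment over the 4 ratios. The Il1r1 to Il1rap ratio differed by -0.81 and overlapped between the groups (exact p = 0.2, adjusted 0.267). The ratio of decoy Il1r2 to signalling Il1r1 was 1.30 ± 0.42 in WT and 1.17 ± 0.32 in cKO (SD, n = 3; exact p = 0.8), and the sign of this difference depended on WT2 and on cKO1 (0.11 without WT2 and 0.06 without cKO1).

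The sixth gene of the cluster had overlapping groups. Il1rl2, the receptor of the IL-36 cytokines, lies between Il1r1 and Il1rl1 and averaged 2.10 ± 0.160 in WT and 2.42 ± 0.401 in cKO (CPM, SD, n = 3; log2 difference 0.21 ± 0.23 SE, 95% interval -0.33 to 0.75; edgeR adjusted p = 0.925). The nearest tested genes outside the cluster had overlapping groups as well. On the Il1r2 side these were Map4k4, a kinase gene, at 346 ± 36.8 and 371 ± 39.4 CPM (log2 fold change 0.10 ± 0.11 SE) and Rnf149 (-0.10 ± 0.08). On the Il18rap side they were Mfsd9, at 1.23 ± 0.450 and 1.48 ± 0.742 CPM (log2 fold change 0.27 ± 0.47 SE), and Mrps9, a mitochondrial ribosomal protein gene (-0.01 ± 0.09). The 95% interval of Mfsd9, -0.83 to 1.37, is wide and includes the log2 fold change of Il18r1 (-0.54). Mrps9 starts 2766.5 kb from the start of Il1r2, far outside the cluster. The sodium-proton exchangers Slc9a4 and Slc9a2 just past Il18rap were below the count filter, at no more than 0.451 CPM in any library.

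**Figure D3:**
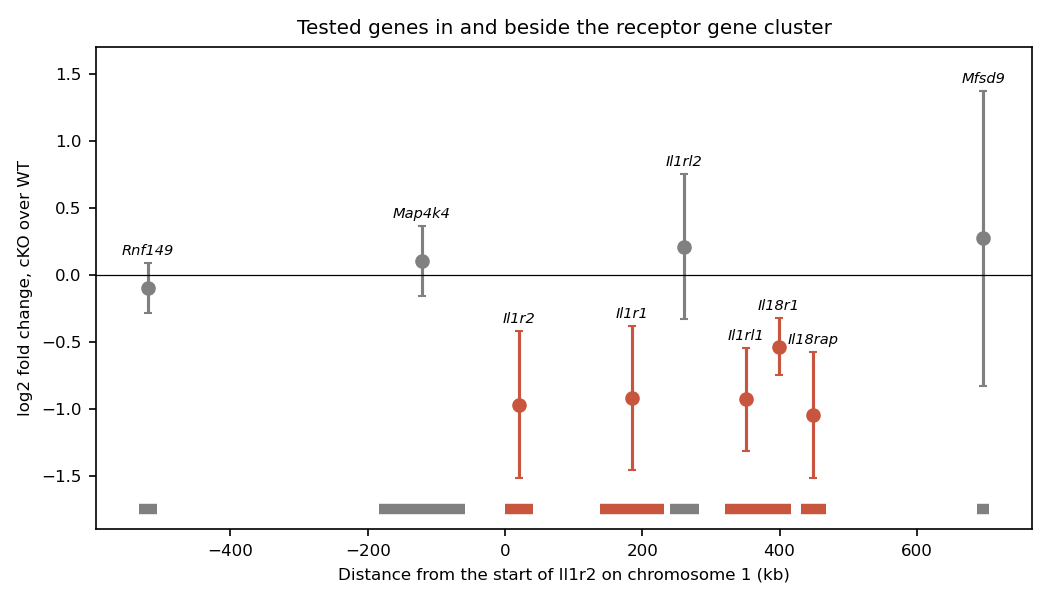
Log2 fold change (cKO over WT) with its 95% interval for tested genes, placed by distance in kb from the start of Il1r2; bars at the bottom show gene extents, members are red and other genes grey (Mrps9 lies further out). The 5 members lie below 0 with their whole intervals, and the intervals of Rnf149, Map4k4, Il1rl2 and Mfsd9 include 0.

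Transcripts of the ligands were near the detection limit in these cells. Of the 11 ligands and antagonists listed, 5 had a row in the table used here and 3 passed the filter. Il18 stood at 0.847 ± 0.363 and 0.776 ± 0.713 CPM, and Il1rn, the IL-1 receptor antagonist, at 1.02 ± 0.365 and 0.596 ± 0.269 CPM in WT and cKO (SD, n = 3). Il18bp, the soluble inhibitor of IL-18, was listed at 0 in WT1 and WT3, at 1.79 CPM in WT2 and at 1.69 to 2.13 CPM in the cKO libraries (adjusted p = 0.851 with edgeR). None of the 3 was called, and the summed level of the list was 2.08 to 4.604 CPM in WT and 2.51 to 5.62 CPM in cKO.

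No signalling gene downstream of the receptors was called by edgeR or DESeq2. All 19 genes from the IRAK kinases to the IKK complex were tested, and the median log2 fold change was 0.06, with single genes from -0.17 to 0.44. Irak3, the IRAK relative that restrains signalling (IRAK-M), averaged 5.87 ± 0.848 in WT and 7.96 ± 0.908 in cKO (CPM, SD, n = 3; log2 difference 0.44 ± 0.17 SE, adjusted p = 0.591 with edgeR) and its groups did not overlap. Ube2n, the ubiquitin-conjugating enzyme that works with TRAF6, had a log2 fold change of -0.12 ± 0.06 (SE) and Tab3, an adaptor of the kinase TAK1, of -0.17 ± 0.10 (SE). Irak4, the first kinase of the complex, stood at 28.8 ± 1.87 and 30.1 ± 2.30 CPM, and Traf6 at 137 ± 8.73 and 143 ± 18.7 CPM.

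Toll-like receptors also signal through MyD88 or the related adaptors. Of 15 such genes 12 were tested and none was called by either tool (median log2 fold change 0.12). The lowest p belonged to Tlr12 (2.34 ± 0.420 and 3.14 ± 0.134 CPM), Tlr3 (0.474 ± 0.105 and 0.761 ± 0.329 CPM) and Tlr4 (1.05 ± 0.229 and 0.744 ± 0.210 CPM) in WT and cKO (SD, n = 3). Tlr1, a partner of TLR2, stood at 100.5 ± 3.51 and 110.6 ± 27.7 CPM. Among genes that process IL-1 and IL-18, 6 of 7 were tested and neither tool called any (median -0.09). Casp1, the protease that matures both cytokines, averaged 11.2 ± 1.01 in WT and 7.55 ± 2.19 in cKO with no overlap (log2 fold change -0.56 ± 0.22 SE, adjusted p = 0.597 with edgeR), Casp4, the related inflammatory caspase, differed by -0.51 ± 0.21 (SE), and Aim2, a sensor of cytosolic DNA, by -0.14 ± 0.09 (SE).

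The 13 genes of NF-kB feedback and response had a median log2 fold change of -0.12, with 12 below 0 (6261 of the 12887 genes tested were). None was called by edgeR, and DESeq2 called 1 of them, Cd83, lower (1.22% of all genes were). Cd83, a surface activation marker, stood at 79.2 ± 12.6 and 43.9 ± 2.94 CPM (CPM, SD, n = 3; log2 difference -0.85 ± 0.12 SE, adjusted p = 0.0590 with edgeR and 1.54e-06 with DESeq2), Relb, an NF-kB subunit, differed by -0.12 ± 0.07 (SE), and Nfkbiz, a nuclear co-regulator induced by IL-1, by -0.15 ± 0.10 (SE). Tnfaip3, which encodes the feedback inhibitor A20, separated libraries rather than genotypes, at 4898 CPM in WT2 and 4612 CPM in cKO1 against 1152 to 2332 CPM in the other 4. In those 2 libraries Il1r1 was the lowest of its group, whereas Il1rl1 was lowest of its group in WT2 and highest in cKO1. Il18r1, Il18rap and Il1r2 were each highest of their group in WT2 and lowest in cKO1, so these libraries widen their group difference. With both libraries left out, the same 5 of 8 members had an unadjusted p under 0.05, and none was among the 71 genes called. Over all genes, 1475 of 12917 had an unadjusted p under 0.05 in that setting, against 991 of 12887 in the reported fit.

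A list of genes tied to ST2+ effector Treg cells had 1 call. Of 12 genes in this list 11 were tested, 1 was called lower by edgeR (0.202% of all genes were) and none higher, 7 were lower with no overlap (8.12% of all genes were), and the median log2 fold change was -0.78. DESeq2 called 6 of the 11 lower, against 1.22% of all genes. The list was drawn up with earlier results of these data known and is no independent evidence. Klrg1, a lectin-like receptor of terminally differentiated effector cells, was the called gene and averaged 6.95 ± 0.713 in WT and 0.453 ± 0.324 in cKO (CPM, SD, n = 3; log2 difference -3.93 ± 0.47 SE, edgeR adjusted p = 0.0449). Its direction was the same under all 17 alternatives, and it was called in 10 of them; with the replicate block, or with any 1 library left out, the call was lost (adjusted p from 0.0638 to 0.191). Il10, an immunosuppressive cytokine, differed by -1.21 ± 0.21 (log2, SE; edgeR adjusted p = 0.0978) and Rora, a nuclear receptor of tissue Treg cells, by -0.96 ± 0.18 (edgeR adjusted p = 0.125). Gata3, a factor known to drive Il1rl1, stood at 213 ± 17.04 and 187 ± 30.5 CPM with overlapping groups (log2 fold change -0.19 ± 0.13 SE, adjusted p = 0.834 with edgeR). Areg, which encodes the repair factor amphiregulin, stood at 7.75 ± 3.602 and 4.78 ± 2.77 CPM, also overlapping.

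**Figure D4:**
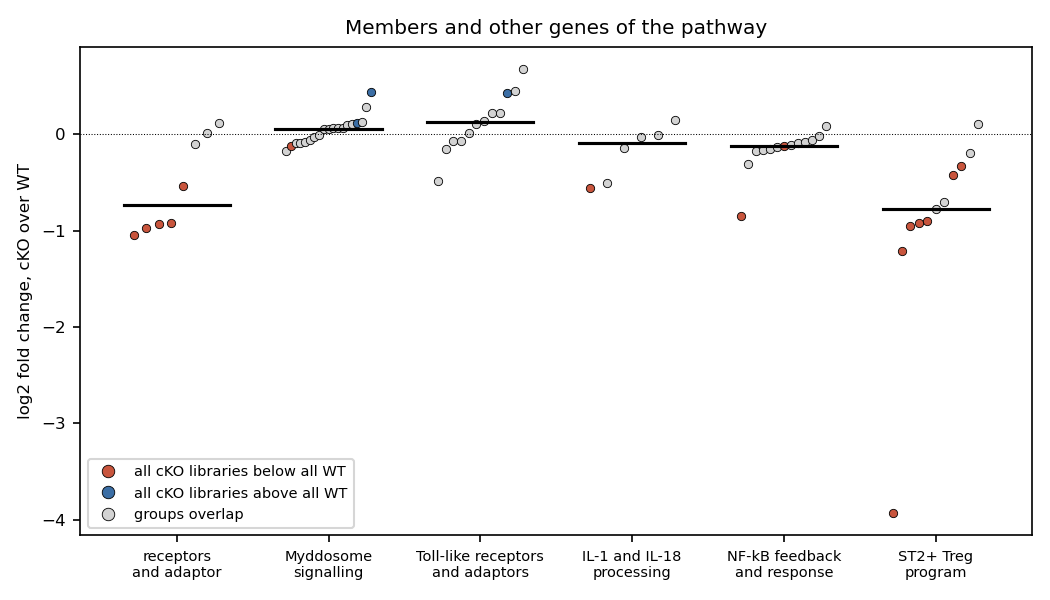
Log2 fold change (cKO over WT) of the 8 members and of the tested genes in 5 lists; each point is a gene, horizontal lines are medians, and colour gives whether the libraries of the groups overlap. The medians of the members (-0.73) and of the ST2+ Treg list (-0.78) lie low, and that of Myddosome signalling lies at 0.06.

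Genes with the pattern most like Il1rl1 or Il18r1 were found by Pearson correlation of log2 CPM over the 6 libraries among 8328 named protein-coding genes at a mean of at least 10 CPM; these points share libraries and the group difference. The 5 genes most like Il1rl1 were Vps54 (r = 0.992), Adam8 (0.984), Haspin (0.982), Tnfsf11 (0.976) and Irf4 (0.9748). Tnfsf11, which encodes the cytokine RANKL, averaged 46.9 ± 0.815 in WT and 32.5 ± 1.53 in cKO (CPM, SD, n = 3; adjusted p = 0.0520 with edgeR). The 5 most like Il18r1 were Slc22a15 (r = 0.990), Galnt1 (0.989), Tasp1 (0.988), Rnf121 (0.986) and Atf6 (0.985), with log2 fold changes from -0.64 for Slc22a15 to -0.12 for Galnt1. No gene was in both groups of 5.

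Markers of other cell types that carry these receptors were measured in the same libraries. Of 11 mast cell and basophil markers, cells known for high ST2, 5 had a row in the table used here and 2 were tested (Kit and Ms4a2, neither called); the list summed to 7.29 to 8.37 CPM in WT and 5.46 to 9.54 CPM in cKO, most of it Kit (6.19 ± 0.989 and 4.99 ± 2.77 CPM), with Cpa3 at 0.269 ± 0.0781 and 0.209 ± 0.148 CPM. The 12 myeloid markers, relevant to Il1r2 and Myd88, summed to 43.6 to 81.4 CPM in WT and 46.01 to 113 CPM in cKO, led by Lyz2 at 21.2 ± 10.03 and 30.7 ± 10.8 CPM, and none of 9 tested was called by edgeR (1 by DESeq2, Cebpa, lower). The lowest p belonged to 2 genes with opposite signs: Cebpa, a granulocyte and monocyte factor, stood at 5.79 ± 0.540 and 1.82 ± 0.645 CPM (edgeR adjusted p = 0.0836) and Csf1r, a macrophage receptor, at 2.46 ± 1.55 and 11.2 ± 9.95 CPM (0.527). The myeloid sum was highest in cKO2, WT2 and cKO1, where Il1r2 was highest of its group in WT2 and cKO2 and lowest in cKO1. CD8 T and NK cell markers, relevant to the IL-18 receptor, summed to 40.3 to 45.1 CPM in WT and 37.2 to 46.6 CPM in cKO (9 genes, 6 tested, none called). Nkg7 was highest in WT (18.5 ± 2.90 CPM, and 11.7 ± 2.16 CPM in cKO). It had the lowest p of this list, and its groups did not overlap (log2 fold change -0.66 ± 0.17 SE, edgeR adjusted p = 0.304). Cd8b1 was highest in cKO (16.5 ± 1.86 CPM, and 14.1 ± 1.25 CPM in WT). The median log2 fold change of the 6 was 0.27, with 2 of them below 0. Ncr1, the defining NK receptor, was listed at 0 in all WT libraries. B cell markers summed to 15.8 to 17.3 CPM in WT and 16.3 to 34.0 CPM in cKO (10 genes, 6 tested, none called; Cd79b was highest, at 9.12 ± 0.586 and 7.99 ± 1.71 CPM, while the lowest p was that of Bank1, log2 fold change 0.92). Erythroid markers summed to 197 CPM in cKO1 and to 0.277 to 5.56 CPM in the other 5 libraries (6 genes, 3 tested, none called), led by Hba-a1 and, in lowest p, Hbb-bs. The part of these cells in the member values was not tested.

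The direction of the 5 chromosome 1 genes was kept under all 17 alternative settings. Their log2 fold changes ranged from -1.12 to -0.79 for Il1rl1, -0.61 to -0.45 for Il18r1, -1.09 to -0.77 for Il1r1, -1.18 to -0.78 for Il18rap and -1.19 to -0.69 for Il1r2. The unadjusted p of these 5 was under 0.05 in all 17. Over all genes, such a p was found for 681 of 13106 without WT1 and up to 1475 of 12917 without WT2 and cKO1. The settings reuse the same libraries and are not repeated evidence. Since the groups of these 5 do not overlap, leaving out libraries could not turn the direction. DESeq2 was the only setting that called any of them.

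**Figure D5:**
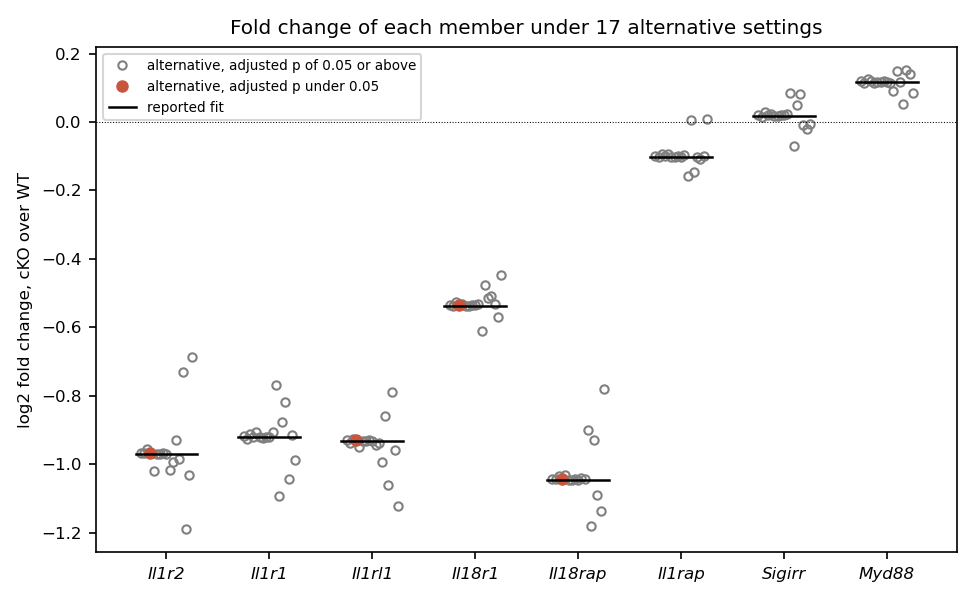
Log2 fold change of each member (cKO over WT) in the reported fit (black line) and under 17 alternative settings (circles), filled red where the adjusted p was under 0.05. Filled circles appear for Il1r2, Il1rl1, Il18r1 and Il18rap, 1 each, from DESeq2, and Il1rap and Sigirr have circles on both sides of 0.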

How the data were processed

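The mRNA of 6 Treg libraries was sequenced on an Illumina instrument after NEBNext Ultra preparation, per the labels. Build mm10 and the tools featureCounts 1.5.0-p3, HISAT2 2.0.5 and DESeq2 1.16.1 appear, without roles, in the submitters' processing notes. The authors deposited estimated counts per gene, not normalized, of which 45.4% to 46.3% per library were not whole to within 0.01 (the step that made these fractions is not stated). The authors also deposited FPKM, judged so from the values and used here only for levels between genes, and group means, which were not used.

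Estimated counts were rounded. In R 4.3.3, genes passing filterByExpr of edgeR 4.0.16 (minimum count 10; 12887 genes) were scaled by TMM and tested with the quasi-likelihood F test (legacy = TRUE, the default), group as the only term, Benjamini-Hochberg over all genes, called at an adjusted p under 0.05. Standard errors came from the F statistic. The common biological coefficient of variation was 16.7%. Log2 CPM used a prior count of 0.5. Coordinates and promoters came from RefSeq (GRCm38.p6), matched by Entrez identifier. Code was tested on simulated data.

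The members and lists were chosen with earlier results of these data known. Named genes were the members, Tkt, called and up to 3 lowest-p genes of each list (1 or 2 for marker lists), the most abundant marker of other cell types, the 5 genes most like Il1rl1 and Il18r1, and the cluster's neighbours; Irak4, Traf6, Tlr1, Tnfaip3, Gata3, Areg, Foxp3, Il18bp, Cpa3 and Ncr1 were added after their values were seen. Groups were taken from sample titles. Alternatives were DESeq2 1.42.0, limma-voom (limma 3.58.1), 3 other scalings, 2 other filters, robust empirical Bayes, legacy = FALSE, the replicate number as a block, each library left out, and WT2 and cKO1 left out together.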

Additional observations from a re-analysis of the deposited data

How the results depend on the processing

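The number of members called was 0 in the reported fit and in 16 of 17 alternatives; with DESeq2 it was 4. The cause of that difference was not tested. Leaving out 1 library at a time gave 0 members called each time. Over all genes, 27 were called in the reported fit, 179 with DESeq2, 48 with robust empirical Bayes, 43 with no low-count filter, 71 without WT2 and cKO1, and 0 with the replicate block. Without WT1, WT3, cKO1, cKO2 or cKO3, 0 genes were called (681 to 909 at an unadjusted p under 0.05), and 30 without WT2. The labels do not say whether the replicate numbers mark a shared litter or day. Deviations of same-numbered libraries correlated at -0.231, 0.063 and 0.222, and WT2 was closest to cKO1 (0.265). With 3 libraries per group these values cannot decide whether the numbers mark a pairing. No member was called with the block, which left 0 genes called at all.

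Directions changed only in members near 0. The log2 fold change of Il1rap lay between -0.1588 and 0.0073 with 1 library left out, turning positive without WT2, and was 0.0083 without WT2 and cKO1. That of Sigirr lay between -0.0691 and 0.0860 with 1 library left out, turning negative without WT2 (-0.069), cKO2 (-0.01) or cKO3 (-0.019), and was -0.0060 without WT2 and cKO1. The difference in the Il1r2 to Il1r1 ratio lay between -0.30 and 0.11 with 1 library left out, turning positive without WT2 (0.11) and without cKO1 (0.06). The other ratios kept their sign, also with a prior count of 2. At this depth, genes near 1 CPM rest on about 17 reads per library.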
